A study of Mus musculus with 12 samples.

Results

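The transcripts of the beta-adrenergic receptors and of protein kinase A (PKA) were followed in mouse whole heart: the receptor genes Adrb1 and Adrb3, the regulatory subunit genes Prkar1a, Prkar1b, Prkar2a and Prkar2b, and the catalytic subunit genes Prkaca and Prkacb. These 8 genes, of 54178 gene entries in the deposited table, were chosen by name, with their levels across the 4 groups already known. Their levels and differences are therefore given as a description. The fit over all genes is cited for them only to say which it called, and no such call is read as a result.

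Flox mice carried loxP-flanked CITED4 alleles (flox/flox). KO mice came from crossing them with aMHC-cre mice, whose Cre recombinase is driven by the alpha-myosin heavy chain promoter and so targets cardiomyocytes and not the other cells of the heart. Cell types were not measured separately. Each genotype was either sedentary or had voluntary wheel running for 8 weeks, with 3 libraries a group and 12 in all. All 4 groups share the floxed alleles, and no group with Cre and intact alleles was analysed here, so loss of Cited4 and presence of Cre cannot be told apart. The labels do not tie libraries to animals, so the spread between libraries may in part be technical. The sources used here give no strain, sex or age. In the bracketed codes of the sample titles the treatment letter runs against the treatment word, with E beside sedentary and S beside exercise. Groups were named by the words, and "sedentary" and "exercise" below mean the label. Were the codes right, the treatment differences would change sign and the genotype differences would exchange labels.

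Library totals ran from 17465401 to 20467260 counts. Cited4 was at 10.1 to 23.9 CPM (counts scaled to a common library size) in the 6 Flox libraries and at 0 to 0.241 CPM in the 6 KO libraries, as the genotype labels have it. Some libraries stood apart within their group on markers of atrial muscle, and the 3 KO sedentary libraries stood apart on some markers of fat but not on others. Those values are given beside the genes they moved with.

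Noradrenaline and adrenaline bind beta-adrenergic receptors, which act through the stimulatory G protein on adenylyl cyclase to raise cyclic AMP (cAMP). PKA is held inactive as a complex of regulatory and catalytic subunits. When cAMP binds the regulatory subunits, the catalytic subunits are released from inhibition and phosphorylate their substrates, which in cardiomyocytes include the L-type calcium channel complex, the ryanodine receptor, phospholamban, troponin I and myosin-binding protein C. Adrb1 encodes the main beta receptor of cardiomyocytes, whereas Adrb3 encodes the receptor best known from brown and white fat, where it drives lipolysis and heat production. Type I holoenzymes contain RI subunits (Prkar1a, Prkar1b) and are largely soluble. Type II holoenzymes contain RII subunits (Prkar2a, Prkar2b) and are mostly bound to A-kinase anchoring proteins. RII-beta, the product of Prkar2b, is known as a main regulatory subunit of fat and of parts of the brain.

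Levels between genes were compared as CPM per kilobase of exon, over all 12 libraries. Prkar1a stood highest, at 92.6 ± 9.10 CPM per kilobase (SD, n = 12), followed by Prkaca at 84.6 ± 9.92. Their ranges overlapped, and Prkar1a was the higher in 8 of 12 libraries. Prkar2a followed at 15.9 ± 2.94 and Prkacb at 10.5 ± 1.204, again with overlapping ranges, although Prkar2a was the higher in all 12 libraries. Adrb1 lay below both, at 6.67 ± 0.75 CPM per kilobase, without overlap with Prkacb. The lowest levels were those of Prkar2b at 1.28 ± 1.72, Prkar1b at 0.705 ± 0.191 and Adrb3 at 0.178 ± 0.303 CPM per kilobase, and the ranges of neighbours among these overlapped. Prkar2b exceeded Prkar1b in only 4 of 12 libraries, and its group mean was the lower in Flox sedentary (0.373 against 0.629 CPM per kilobase) and in KO exercise (0.382 against 0.748). Prkar1b exceeded Adrb3 in 11 of 12 libraries. For Prkar2b and Adrb3 the SD exceeded the mean, because the KO sedentary libraries were far above the other 9. Per length, transcripts of these genes were thus mostly those of Prkar1a (RI-alpha) and Prkaca (C-alpha).

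**Figure D1:**
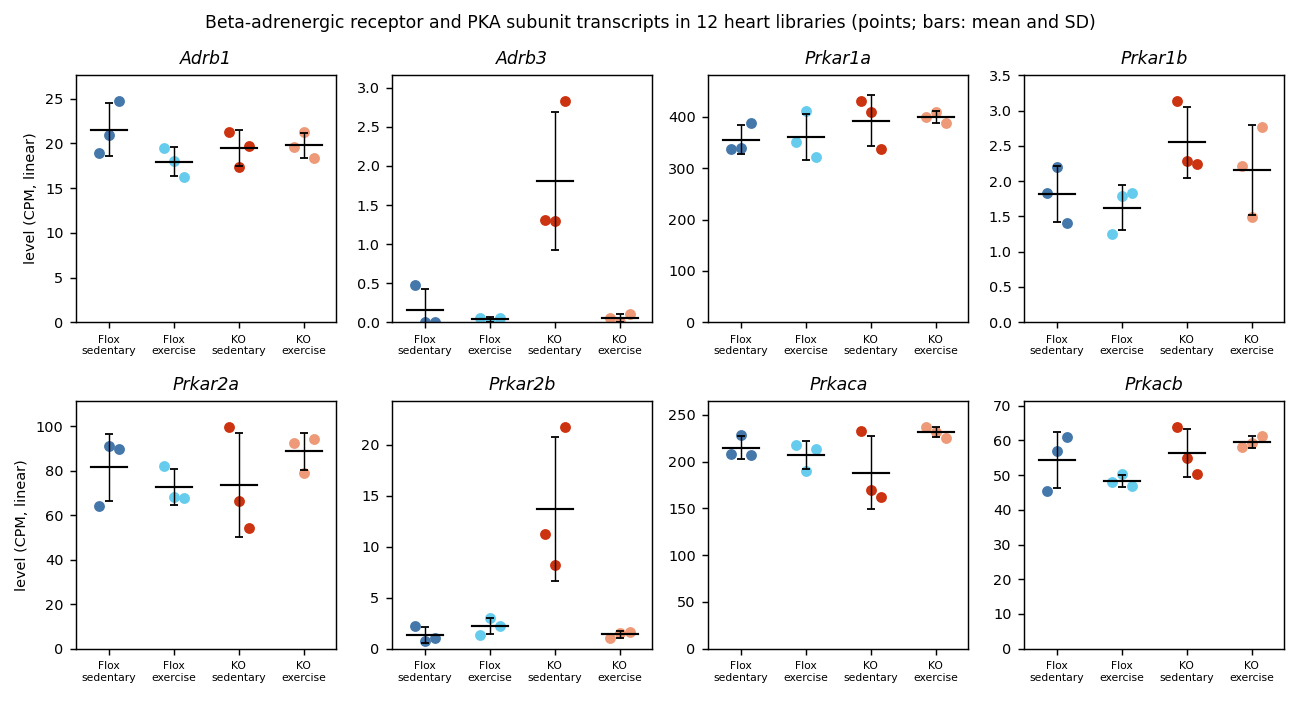
Level of each of the 8 genes in CPM (linear axes from 0) in the 12 libraries, by group; points are libraries, horizontal bars means and vertical bars SD (n = 3). Prkar2b and Adrb3 are high in the 3 KO sedentary libraries, at 8.24 to 21.7 and 1.30 to 2.83 CPM, and the other 6 genes show much smaller shifts between groups.

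Of the receptors, Adrb1 (GRCm38, chromosome 19, 56722199 to 56733113, plus strand) was at 19.0, 21.0 and 24.7 CPM in the Flox sedentary libraries and at 19.5, 18.1 and 16.3 CPM in the Flox exercise libraries. In KO hearts it was at 21.3, 17.4 and 19.7 CPM with the sedentary label and at 19.6, 21.3 and 18.4 CPM under the exercise label. All pairs of groups overlapped. The log2 difference (± SE from the fit) was -0.26 ± 0.12 for exercise over sedentary in Flox and 0.02 ± 0.12 in KO hearts. Between genotypes it was -0.15 ± 0.12 (KO over Flox) with the sedentary label and 0.14 ± 0.12 with the exercise label.

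Adrb3 (chromosome 8, 27225776 to 27250616, minus strand) was near the limit of detection outside the KO sedentary group. Its rounded counts were 27, 29 and 62 in the KO sedentary libraries, against 8, 0 and 0 in Flox sedentary, 1, 0 and 1 in Flox exercise, and 1, 0 and 2 in KO exercise. In CPM the KO sedentary libraries were at 1.30, 1.30 and 2.83, and every other library was at or below 0.472. In whole tissue, more cells of a type and more RNA per cell cannot be told apart. A count of 0 allows a level of up to 3 counts, which was 0.151 to 0.158 CPM in the 4 libraries concerned (counting error only). The ratio of summed counts, scaled to library size, was 12.7 for KO sedentary over Flox sedentary (exact conditional 95% interval 6.22 to 30.02, counting error only). Of the 8 Flox sedentary counts, all were in replicate 1, which was also the Flox library with the most Ucp1. Over KO exercise the ratio was 34.8 (11.6 to 171). Adrb3 passed the filter on low counts only through the KO sedentary group, so it had to differ there, and its fitted log2 difference (3.56 ± 0.90, KO over Flox sedentary) depends on how counts of 0 are handled. Without replicate 1 of Flox sedentary the fitted value was 8.16.

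Among the RI subunits, Prkar1a (chromosome 11, 109649405 to 109669656, plus strand), the ubiquitous one, was at 338, 339.7 and 387 CPM in Flox sedentary and at 351, 410.3 and 322 CPM in Flox exercise. It was at 431, 409.9 and 338 CPM in KO sedentary and at 400.4, 409.8 and 388 CPM in KO exercise. KO libraries lay slightly above Flox libraries on average (log2 difference 0.15 ± 0.13 under either label), with overlap in both comparisons. Prkar1b (chromosome 5, 139017306 to 139150001, minus strand), the RI form known mainly from neurons, was at 1.83, 2.21 and 1.41 CPM in Flox sedentary and at 3.14, 2.28 and 2.24 CPM in KO sedentary. These groups did not overlap, although the lowest KO library exceeded the highest Flox library by little, and the log2 difference was 0.49 ± 0.29. Markers of sympathetic neurons and Schwann cells, of which 4 of 7 were tested, summed to 18.5 to 25.2 CPM in KO sedentary, 12.4 to 16.0 in Flox sedentary, 14.9 to 22.8 in Flox exercise and 16.7 to 21.8 in KO exercise. All 4 were above 0 in KO over Flox sedentary and none passed, with Dbh at 1.55 ± 0.53 and Ncam1 at 1.38 ± 0.42. Their part in the Prkar1b level was not tested. Under the exercise label Prkar1b was at 1.25, 1.79 and 1.83 CPM in Flox and at 2.22, 1.497 and 2.77 CPM in KO, with overlap. The Prkar1b locus overlaps other annotated genes, and the strand setting of the counting is not known here, so its level is uncertain to that extent.

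Among the RII subunits, Prkar2a (chromosome 9, 108689314 to 108750436, plus strand), the form found in most tissues, was at 64.0, 91.0 and 89.6 CPM in Flox sedentary and at 82.1, 68.3 and 67.9 CPM in Flox exercise. In KO hearts Prkar2a was at 99.5, 66.6 and 54.3 CPM with the sedentary label and at 92.6, 79.1 and 94.4 CPM under the exercise label. Every pair of groups overlapped, and KO sedentary had the widest spread (73.5 ± 23.4 CPM, SD, n = 3).

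Prkar2b (chromosome 12, 31958476 to 32061296, minus strand) behaved differently. It was at 11.3, 8.24 and 21.7 CPM in the KO sedentary libraries, from 234, 184 and 476 counts. The other groups were at 2.24, 0.788 and 1.06 CPM (Flox sedentary), 1.37, 2.997 and 2.22 CPM (Flox exercise), and 1.03, 1.497 and 1.65 CPM (KO exercise), from 15 to 57 counts a library. The lowest KO sedentary library was thus above the highest of the other 9. Group means were 13.8 ± 7.08 CPM for KO sedentary, 1.36 ± 0.774 for Flox sedentary, 2.19 ± 0.814 for Flox exercise and 1.39 ± 0.324 for KO exercise (SD, n = 3). The ratio of summed counts of KO sedentary was 10.4 over Flox sedentary (8.18 to 13.3), 6.21 over Flox exercise (5.13 to 7.57) and 9.89 over KO exercise (7.87 to 12.6), with exact conditional 95% intervals that cover counting error only. In the fit the log2 difference was 3.35 ± 0.45 for KO over Flox sedentary and -3.30 ± 0.45 for exercise over sedentary in KO. In Flox hearts exercise over sedentary was 0.71 ± 0.47, and the difference between the KO and the Flox treatment differences was -4.0 ± 0.65. Within the KO sedentary group replicate 3 was highest, and without it the KO over Flox value was 2.84.

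Stretches upstream of Prkar2b and Prkar1a are shown because these are the regulatory subunits with the widest and the narrowest spread between groups relative to their level. Both come from the RefSeq start-site windows of GRCm38.p6 (7 of the 8 genes had windows there, 20 in all), each 300 bases and here cut at the annotated exon that the window reaches. Prkar1a has 6 windows and Prkar2b has 2, and 1 of each is shown. They read 5' to 3' on the gene's strand. Capitals mark GC boxes, searched as GGGCGG on both strands, and the cAMP response element, searched as TGACGTCA, which reads the same on both strands; neither motif contains the other.
Prkar2b, chr12:32061297-32061527, minus strand: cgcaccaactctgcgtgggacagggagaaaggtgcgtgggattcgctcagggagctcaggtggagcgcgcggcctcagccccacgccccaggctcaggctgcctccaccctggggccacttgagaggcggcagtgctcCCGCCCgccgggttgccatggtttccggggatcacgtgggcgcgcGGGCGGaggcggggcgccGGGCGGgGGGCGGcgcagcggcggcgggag
Prkar1a, chr11:109650699-109650920, plus strand: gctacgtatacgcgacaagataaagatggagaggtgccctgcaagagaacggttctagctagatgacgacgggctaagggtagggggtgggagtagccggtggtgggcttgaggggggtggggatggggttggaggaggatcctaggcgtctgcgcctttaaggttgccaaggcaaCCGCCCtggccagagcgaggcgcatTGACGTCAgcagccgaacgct
The Prkar2b stretch of 231 bases is 75.8% G or C and holds 4 GC boxes and no cAMP response element. The Prkar1a stretch of 222 bases is 60.8% G or C and holds 1 GC box and 1 cAMP response element, which ends 13 bases before the exon that starts at 109650921. In a longer annotated Prkar1a transcript this stretch is intronic. Over all 32851 windows of the table, 35.7% hold a GC box and 1.79% hold the cAMP response element. Of the 20 windows of these genes, 2 overlapping Prkar1a windows hold that element and the other 18 do not. These are letter matches in the reference and were not measured as bound sites.

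The catalytic subunits differed little between groups. Prkaca (chromosome 8, 83972993 to 83996443, plus strand), which encodes C-alpha, was at 208, 229 and 207 CPM in Flox sedentary and at 218, 190.3 and 214 CPM in Flox exercise. In KO hearts it was at 233, 170.1 and 162 CPM with the sedentary label and at 237, 231 and 226 CPM under the exercise label. The KO exercise libraries all lay above the Flox exercise libraries, by a log2 difference of 0.16 ± 0.14. A processed pseudogene of Prkaca is annotated, and the authors' counting could have split reads between the copies. Prkacb (chromosome 3, 146729574 to 146812990, minus strand), which encodes C-beta, was at 45.5, 57.0 and 61.0 CPM in Flox sedentary and at 63.8, 54.9 and 50.2 CPM in KO sedentary, with overlap. Under the exercise label it was at 48.1, 50.3 and 46.8 CPM in Flox and at 58.1, 59.3 and 61.3 CPM in KO, without overlap and with a log2 difference of 0.30 ± 0.12.

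Set against each other per kilobase, the regulatory transcripts were mostly Prkar1a in every group, at 83.4% ± 2.12, 84.8% ± 1.91, 83.3% ± 2.40 and 83.8% ± 1.71 of the 4 regulatory genes in Flox sedentary, Flox exercise, KO sedentary and KO exercise (SD, n = 3). Prkar2b made up 2.38%, 1.92% and 5.91% in the KO sedentary libraries and at most 0.707% in any other library. Of the type II transcripts alone, it made up 13.4%, 14.4% and 35.2% in KO sedentary, against group means of 2.43% to 4.03% in Flox and 2.11% in KO exercise. Type II transcripts together kept a share of 14.7% to 16.0% in the group means, since Prkar2a was at 12.6% ± 2.48 in KO sedentary and at 14.1% to 15.6% in the other groups. The ratio of catalytic to regulatory transcripts was 0.743 ± 0.070 in KO sedentary (range 0.674 to 0.813), 0.928 ± 0.086 in Flox sedentary (0.833 to 1.00), 0.896 ± 0.138 in Flox exercise (0.742 to 1.01) and 0.891 ± 0.007 in KO exercise (0.886 to 0.900). KO sedentary lay below Flox sedentary and KO exercise without overlap, and overlapped with Flox exercise. These are transcript ratios, and protein was not measured.

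**Figure D2:**
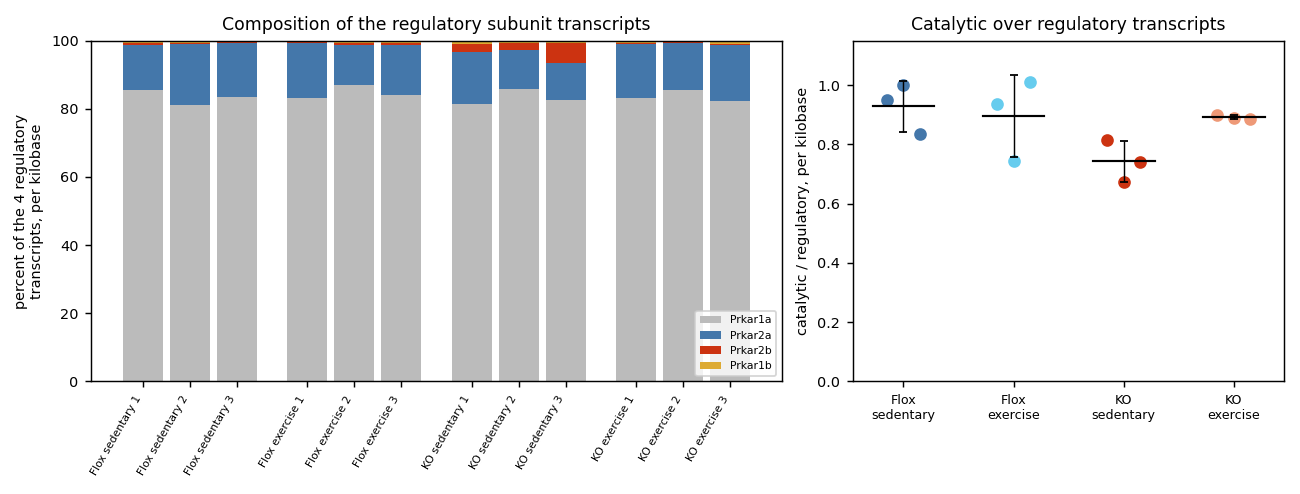
Left, share of each regulatory subunit gene in the 4 regulatory transcripts per kilobase of exon (percent, stacked bars, one per library); right, catalytic over regulatory transcripts per kilobase (points are libraries, bars mean and SD, n = 3). Prkar1a fills at least 81.2% of every bar, Prkar2b is visible at 1.92% to 5.91% in KO sedentary, and the ratio is lowest on average there, at 0.743.

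Across the 5 comparisons of the fit over all 15226 tested genes (edgeR's quasi-likelihood test, Benjamini-Hochberg adjusted p under 0.05), 1 of the 8 genes, Prkar2b, was called. It was higher in KO than in Flox hearts under the sedentary label, where 0.125% of all tested genes were called in either direction, and lower under exercise than sedentary in KO hearts, where 0.0197% were called. The other comparisons called none of the 8, with backgrounds of 0% for exercise over sedentary in Flox, 0.00657% for KO over Flox under the exercise label and 0% for the interaction (the treatment difference in KO minus that in Flox). Since the genes were chosen with these differences known, nothing is read from the count. The call in KO over Flox sedentary was lost without Flox sedentary replicate 2 or 3 and when a score of atrial markers entered the fit as a covariate (log2 difference 3.06 ± 0.60). Calls over all genes in that comparison also fell, from 19 of 15226 to 2 of 15572 without replicate 2 and 6 of 15574 without replicate 3. With the covariate they fell to 3 of 15226. The call for exercise over sedentary in KO lay close to the threshold. It was lost in 8 of 12 fits that left out a library (log2 difference -3.55 to -2.80 over all 12), with the covariate (-3.11), under RLE scaling (-3.29) and with the replicate number as a block (-3.24), so the size stayed near -3.30. Calls over all genes in that comparison were 3 in the main fit and 0 to 6 in those 8 fits. They were 0 with the covariate, 1 under RLE scaling and 4 with the block.

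**Figure D3:**
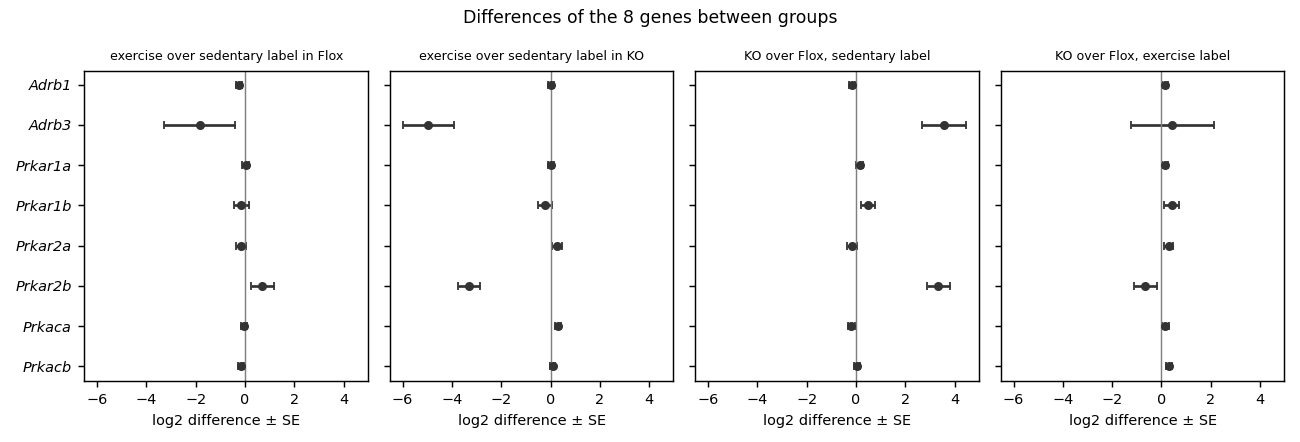
Log2 difference (horizontal axis, points) with its SE (bars) of each of the 8 genes in 4 comparisons. Prkar2b is at 3.35 and Adrb3 at 3.56 in KO over Flox sedentary, both are below 0 for exercise over sedentary in KO, and the SE of Adrb3 is wide because most of its libraries hold few or no counts.

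Groups did not overlap for Prkar2b, Adrb3 and Prkar1b in KO over Flox sedentary, for Prkar2b and Adrb3 in exercise over sedentary in KO, and for Prkaca and Prkacb in KO over Flox under the exercise label. In Flox, exercise over sedentary separated none of the 8. Among all tested genes the groups did not overlap for 18.4%, 13.1%, 14.8% and 14.1% in these comparisons, in the same order. The median log2 difference of the 8 genes was 0.10 in KO over Flox sedentary, where that of all tested genes was 0.00, and 0.22 under the exercise label, where that of all tested genes was -0.01. In KO over Flox exercise 7 of the 8 were above 0, with Prkar2b, at -0.66 ± 0.47, the exception. The comparisons share groups, so these counts are not independent of one another.

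Some markers of fat were high in the same libraries as Prkar2b and Adrb3, and others were not. Ucp1, the heat-producing uncoupling protein of brown fat, was at 22.8, 33.9 and 97.0 CPM in the KO sedentary libraries, at 3.90, 0.158 and 0 CPM in Flox sedentary, at 0 in all Flox exercise libraries, and at 0, 0.0516 and 0 CPM in KO exercise. Adipoq (adiponectin) was at 6.13, 10.3 and 16.4 CPM in KO sedentary and at 0.158 to 1.55 CPM in the other 9 libraries. Plin1, the lipid droplet coat of adipocytes, was at 10.9, 5.06 and 12.4 CPM in KO sedentary and at 0 to 1.30 CPM elsewhere. Prkar2b, Adrb3, Ucp1, Adipoq and Plin1 were all highest in KO sedentary replicate 3. So were the atrial markers Myl7 and Nppa, at 2514 and 13261 CPM there, so this was not particular to fat markers. Of 16 adipocyte markers 14 were tested, 9 were above 0 in KO over Flox sedentary and 5 rose (edgeR adjusted p 0.00370 to 0.0459): Cidec, Adipoq, Cebpa, Retn and Acvr1c. Retn and Acvr1c, at means of 0.0540 and 0.0175 CPM in Flox sedentary, passed the filter on low counts only through KO sedentary, as Adrb3 did. They had to be higher there, so nothing is read from their calls. Of the tested markers 5, among them the most abundant, Fabp4 and Plin4, were below 0 and did not pass: Aqp7 (-0.41 ± 0.25), Fabp4 (-0.29 ± 0.20), Plin4 (-0.28 ± 0.14), Lipe (-0.18 ± 0.21) and Pparg (-0.15 ± 0.19). Among the 3 tested of 4 brown fat markers all were above 0 and none passed, with Ucp1 at a log2 difference of 5.32 ± 1.18 (edgeR adjusted p = 0.165). Ucp1 and Otop1, another of these markers, also passed the filter only through KO sedentary, so their direction was fixed in advance. The summed adipocyte list was at 818 to 1059 CPM in Flox sedentary, 754 to 939 in Flox exercise, 845 to 1029 in KO sedentary and 595 to 842 in KO exercise, but Fabp4, which endothelium also expresses, made up 48.2% to 67.1% of it. Without Fabp4 the sums were 306 to 355, 302 to 330, 399 to 517 and 270.1 to 379 CPM. The brown fat sum was 0.683 to 5.49, 1.52 to 2.97, 29.0 to 108 and 1.14 to 4.0 CPM, in the same order. The part of fat tissue in the levels of Prkar2b and Adrb3 was not tested.

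**Figure D4:**
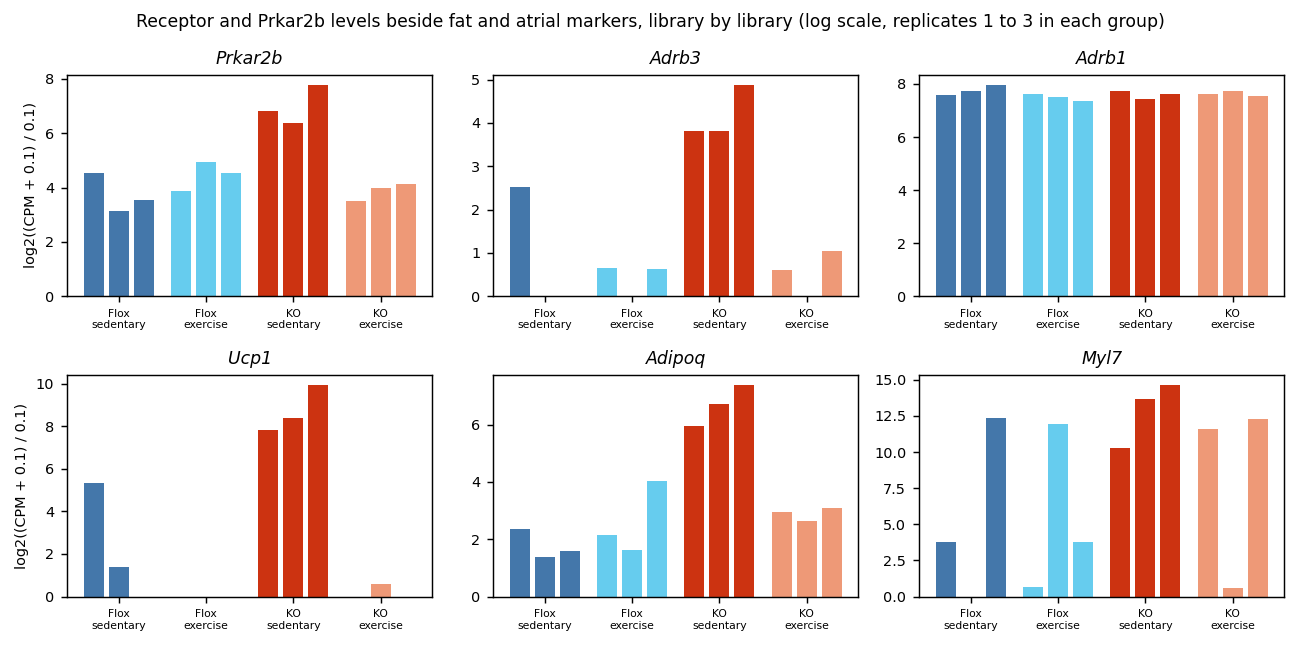
Prkar2b, Adrb3 and Adrb1 (top) beside Ucp1, Adipoq and Myl7 (bottom) in the 12 libraries, as log2 of CPM plus 0.1 over 0.1, so that 0 CPM is at 0; colours are groups and bars within a group replicates 1 to 3. Ucp1 and Adipoq are high in the same 3 libraries as Prkar2b and Adrb3, Adrb1 is level, and Myl7 is also high in 1 Flox sedentary, 1 Flox exercise and 2 KO exercise libraries.

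Atrial markers also differed between libraries. Myl7, the atrial myosin light chain, was at 126, 1319 and 2514 CPM in KO sedentary, at 1.24, 0 and 516 CPM in Flox sedentary, at 0.0570, 389 and 1.27 CPM in Flox exercise, and at 309, 0.0516 and 506 CPM in KO exercise. Summed, the 8 atrial markers were at 1550 to 21468 CPM in KO sedentary, and at 247 to 4108, 175 to 4696 and 204 to 3352 CPM in Flox sedentary, Flox exercise and KO exercise. All 8 were above 0 in KO over Flox sedentary and none passed. Outside KO sedentary, the 4 libraries with Myl7 at 309 to 516 CPM had Prkar2b at 1.06 (Flox sedentary), 2.997 (Flox exercise), 1.03 and 1.65 CPM (KO exercise), and the other 5 had it at 0.788 to 2.24 CPM. The 12 cardiomyocyte markers summed to 53378 to 64953 CPM in KO sedentary and to 72106 to 75384, 65004 to 70870 and 59245 to 74243 CPM in the other groups, in the same order. Of these, 11 of 12 were below 0 in KO over Flox sedentary and none passed. Smooth muscle markers summed to 341 to 816 CPM in KO sedentary and to 156 to 303, 217 to 320 and 234 to 374 CPM elsewhere, with 6 of 6 above 0 and 1, Myl9, passing (edgeR adjusted p = 0.0487). Fibroblast markers summed to 1392 to 1623 CPM in KO sedentary and to 945 to 992 CPM in Flox sedentary. Of these, 8 of 8 were above 0 in KO over Flox sedentary and none passed. In Flox exercise and KO exercise they summed to 1136 to 2147 and 1068 to 2191 CPM, so both groups reached above KO sedentary and Flox sedentary was the low group. Their part in the 8 genes' levels was not tested, apart from the atrial covariate above.

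The genes whose profile over the 12 libraries was most like that of Prkar2b were Gys2, Acp5, Scd1, Elovl6, Lgals12, Ankef1, Otop1 and Myl9. Likeness was the root-mean-square difference of log2 CPM profiles, each centred on its own mean, and ran from 0.44 (Gys2) to 0.66 (Myl9) on the log2 scale. A flat profile would have been at 1.40, and the median over 15225 other tested genes was 1.42. Gys2, Lgals12, Ankef1 and Otop1, at means of 0 to 0.0940 CPM in Flox sedentary, passed the filter on low counts only through KO sedentary. They had to be high there, as Prkar2b was, so nothing is read from their places. Adrb3 was 13th on this measure, at 0.71; it was chosen with its levels known and passed the filter through KO sedentary alone, so this place is no support for a relation between the 2 genes. Of the other members Prkar1b was 1487th, Prkar1a 5736th, Prkacb 8015th, Adrb1 9144th, Prkaca 12798th and Prkar2a 13485th. Of the genes most like Prkar2b, Scd1, a fatty acid desaturase, was at a mean of 129 CPM in KO sedentary and 19.7 CPM in Flox sedentary, and Gys2 at 1.05 and 0 CPM; the choice by likeness fixed this direction. Of the 14 tested adipocyte markers 3, Retn, Plin1 and Acvr1c, were among the nearest 30 of the 15225 genes. Retn and Acvr1c passed the filter only through KO sedentary, as Adrb3 did, so nothing is read from their places.

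Around the receptors and the kinase, 8 lists of genes of the cAMP pathway held 99 genes, of which 98 were in the table and 93 were tested. None of the 93 passed in any of the 5 comparisons (edgeR's quasi-likelihood test, Benjamini-Hochberg adjusted p under 0.05 over all 15226 genes). At an unadjusted p under 0.05 there were 23 of 93 (24.7%) in KO over Flox sedentary, 11 higher and 12 lower, where 13.5% of all tested genes reached it. The corresponding figures were 9 of 93 (9.68%, background 7.41%) for exercise over sedentary in Flox, 19 (20.4%, background 10.6%) in KO, 15 (16.1%, background 7.94%) for KO over Flox exercise and 23 (24.7%, background 9.88%) for the interaction. The lists were chosen with earlier results of these data known, so nothing is read from these shares. DESeq2, run as an alternative, called 6, 0, 1, 1 and 1 of the 93 in these comparisons in the same order, where it called 2.59%, 0.322%, 0.749%, 0.0657% and 0.315% of all tested genes. The 6 were Adra1a, Cacna1c, Grk5, Pde7a, Pkia and Plin1. The median log2 difference over the 93 genes in KO over Flox sedentary was -0.06, against 0.00 over all tested genes.

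Upstream of cAMP, 19 receptors, G proteins and adenylyl cyclases had a median log2 difference of -0.07 in KO over Flox sedentary, 9 above and 10 below 0. Adra1a, the alpha1A receptor of cardiomyocytes, was at 7.95 ± 4.25 CPM in KO and 20.2 ± 8.47 in Flox sedentary (SD, n = 3), a log2 difference of -1.35 ± 0.39 (edgeR adjusted p = 0.179). The cyclases Adcy7, at 22.3 ± 0.576 and 17.1 ± 3.71 CPM, and Adcy3, at 7.21 ± 1.93 and 4.96 ± 1.02 CPM, were higher in KO without passing. Under the exercise label Adcy5, a main cyclase of the heart, was at 95.7 ± 17.7 CPM in KO and 62.6 ± 10.1 CPM in Flox (0.61 ± 0.18, edgeR adjusted p = 0.601). Adcy4 ran the other way, at 24.0 ± 1.73 and 32.9 ± 0.488 CPM. The inhibitory G protein gene Gnai3 was at 28.3 ± 1.49 CPM in KO sedentary, 24.1 ± 0.824 in Flox sedentary and 22.6 ± 2.77 in KO exercise, and its interaction (-0.57 ± 0.15) had an edgeR adjusted p of 0.379.

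Of 7 genes that switch receptors off, Grk5, a receptor kinase, was at 60.9 ± 4.0 CPM in KO and 40.7 ± 2.64 in Flox sedentary (0.58 ± 0.14, edgeR adjusted p = 0.121), without overlap. Arrb1, an arrestin, was at 41.9 ± 4.12 and 30.1 ± 1.01 CPM (0.48 ± 0.16, edgeR adjusted p = 0.215). Arrb2 was at 13.0 ± 1.99 CPM in Flox exercise and 9.28 ± 1.11 CPM in Flox sedentary. The list's median in KO over Flox sedentary was 0.30, with 5 above and 2 below 0, and under the exercise label it was -0.07.

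Among 16 phosphodiesterase genes, whose enzymes break down cAMP, the median was -0.01 in KO over Flox sedentary, 7 above and 9 below 0. Pde7a was at 29.4 ± 6.54 CPM in KO and 48.4 ± 5.60 in Flox (-0.72 ± 0.19, edgeR adjusted p = 0.149), and Pde4c was at 8.38 ± 1.195 and 13.9 ± 3.71 CPM. Pde1a was higher in KO, at 7.65 ± 0.689 against 5.39 ± 0.475 CPM. Pde3b, the phosphodiesterase known from adipocytes, was at 9.82 ± 3.58 CPM in KO sedentary and 5.13 ± 0.215 in KO exercise (-0.94 ± 0.34, edgeR adjusted p = 0.401). In Flox sedentary Pde3b was at 4.19, 4.46 and 9.64 CPM, which overlapped with KO sedentary (6.37 to 13.5 CPM).

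All 10 tested anchoring protein genes lay below 0 in KO over Flox sedentary, with a median of -0.11, and 8 of the 10 lay above 0 under the exercise label, with a median of 0.11. None passed in either. Akap5 was at 5.02 ± 0.889 and 8.44 ± 1.02 CPM in KO and Flox sedentary (-0.75 ± 0.35, edgeR adjusted p = 0.374), and Akap9 at 33.7 ± 0.154 and 42.0 ± 5.48 CPM. Among 10 PKA inhibitors and other cAMP effectors 8 were below 0. Pkia, which encodes a PKA inhibitor peptide, was at 101 ± 26.3 and 146 ± 17.2 CPM (-0.53 ± 0.16, edgeR adjusted p = 0.175). Pkig, another such inhibitor, was at 127 ± 5.59 and 159 ± 13.4 CPM, and Rapgef4, a cAMP-activated exchange factor, at 18.2 ± 6.44 and 24.6 ± 4.12 CPM.

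Of 12 cardiac PKA substrates 10 lay below 0 in KO over Flox sedentary, with a median of -0.30, beside the cardiomyocyte markers of which 11 of 12 were below 0. Pln, Tnni3 and Mybpc3 stand on both lists, so the counts are partly of the same genes. Cacna1c, the pore subunit of the L-type calcium channel, was at 206 ± 57.0 CPM in KO and 335 ± 29.9 in Flox (-0.71 ± 0.19, edgeR adjusted p = 0.154). Cacnb2, its beta subunit, was at 45.7 ± 0.966 and 60.7 ± 6.21 CPM (-0.41 ± 0.12, edgeR adjusted p = 0.174). Pln, phospholamban, was at 3304 ± 773 and 4632 ± 611 CPM (-0.49 ± 0.16, edgeR adjusted p = 0.225). In KO hearts exercise over sedentary was above 0 for 10 of the 12, with Pln at 4594 ± 318 CPM under the exercise label. Cacnb2 lay lower under exercise than sedentary in Flox and higher in KO, without overlap in either, and its interaction of 0.65 ± 0.17 had an edgeR adjusted p of 0.379.

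Among 14 genes of the CREB group, the cAMP-responsive transcription factors, their coactivators and target genes, the median was 0.11 in KO over Flox sedentary, 10 above and 4 below 0. Fos, an immediate early gene, was at 6.27, 3.49 and 87.8 CPM in KO sedentary and at 3.19, 2.68 and 5.70 in Flox sedentary, so replicate 3 alone set the KO mean of 32.5 ± 47.9 CPM. Nr4a1, another immediate early gene, was at 10.4, 17.3 and 58.5 CPM in KO sedentary and at 11.1, 8.93 and 14.6 CPM in Flox sedentary, so here too the KO mean of 28.7 ± 26.0 CPM rested on replicate 3. Ppargc1a, a coactivator of mitochondrial genes, was at 74.0 ± 10.2 and 88.7 ± 14.6 CPM.

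Among 5 lipolysis substrates and partners of PKA, Plin1, which is also on the adipocyte marker list, was at 9.44 ± 3.87 CPM in KO and 0.503 ± 0.697 in Flox sedentary (4.28 ± 0.79, edgeR adjusted p = 0.0826). Without Flox sedentary replicate 1 its log2 difference was 6.43 and the edgeR adjusted p was 0.0178. Lipe, hormone-sensitive lipase, was at 45.2 ± 8.21 and 51.1 ± 6.12 CPM, and Pnpla2, the lipase that starts triglyceride breakdown, at 227 ± 25.0 and 257 ± 4.91 CPM. G0s2, an inhibitor of that lipase, was at 23.7 ± 3.28 CPM in KO and 41.5 ± 8.91 in Flox exercise (-0.80 ± 0.16, edgeR adjusted p = 0.523), and its interaction was -1.03 ± 0.23 (edgeR adjusted p = 0.379).

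**Figure D5:**
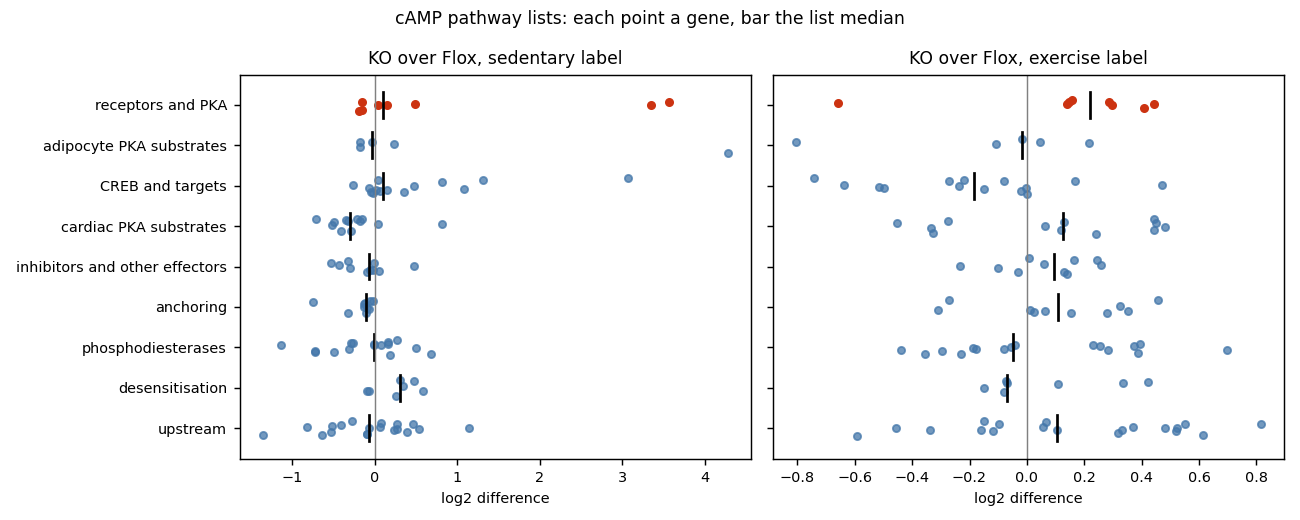
Log2 difference (horizontal axis) of each tested gene of the 8 pathway lists (blue) and of the 8 receptor and PKA genes (red), KO over Flox under the sedentary label (left) and the exercise label (right); each point is a gene and each bar a list's median. The anchoring genes all lie below 0 on the left, where the cardiac PKA substrates have a median of -0.30, and Plin1, at 4.28, lies beyond the receptor and kinase genes.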

How the data were processed

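RNA labelled whole heart, in 12 libraries, was depleted of ribosomal RNA and sequenced, per the labels' protocols. The authors deposited estimated counts, one value per symbol and library, which had not been normalised. FastQC, Salmon and the builds mm9 and mm10 are named in the submitters' processing notes, without version or role. Annotation release, strand setting and how transcripts were summed into genes: not given in the sources used here. Of 55874 entries, 1696 named vectors, adaptors and the like; they took at most 0.186% of a library and entered neither library sizes nor tests.

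Estimated counts were rounded and fitted with edgeR 4.0.16 (R 4.3.3): filterByExpr, TMM, a cell-means model over 4 groups of 3, robust glmQLFit and glmQLFTest, with p-values adjusted by Benjamini-Hochberg over 15226 genes and a threshold of 0.05. CPM use TMM-scaled library sizes. CPM per kilobase use union exon lengths of GENCODE M21 on GRCm38, which may not be the annotation counted. The fit was tested on simulated data. DESeq2 1.42.0, DESeq2's scaling (RLE) in edgeR, no filter, the replicate number as a block, an atrial covariate and each library left out were alternatives.

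The 8 genes and all lists were chosen with earlier results of these data known. Named outside them were, per list, genes past the threshold or otherwise up to 4 with the smallest unadjusted p in KO over Flox sedentary and up to 2 in each other comparison, at a mean of at least 1 CPM, the 8 genes most like Prkar2b, and defining markers; not all of these are printed. Replicate pairs differed by far more than sampling noise (chi-square per degree of freedom of 17.1 or more), so all were kept.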

Additional observations from a re-analysis of the deposited data

How the results depend on the processing

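Each group had 3 libraries, and Adrb3 is limited by its low counts. The p-values set a group difference against the spread between libraries, estimated over the 4 groups together. The number of pathway genes passing was 0 in each of the 5 comparisons. DESeq2 gave 6 in KO over Flox sedentary, and 1 each in exercise over sedentary in KO, KO over Flox exercise and the interaction. Without the filter on low counts 1, Grk5, passed in KO over Flox sedentary, among 120 of 27531 genes. Leaving out 1 library gave 0 to 7 in KO over Flox sedentary and 0 to 9 in exercise over sedentary in KO. The highest counts came without KO sedentary replicate 1, when calls over all genes went from 19 to 479 of 15591 in KO over Flox sedentary and from 3 to 566 in exercise over sedentary in KO, so the rise ran over all genes. Without that library the genes passing in KO over Flox sedentary were Adra1a, Adra1b, Cacna1c, Pkia, Plin1, Pln and Rapgef4, and in exercise over sedentary in KO they were Adcy4, Adra1b, Akap1, Mybpc3, Pkia, Plin1, Pln, Rapgef4 and Ryr2. Without Flox sedentary replicate 1, Plin1 passed in both, among 11 and 5 of 15561 genes. The cause was not tested.

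Of 680 values of the 8 genes under alternatives (40 log2 differences), 651 kept their sign and 10 moved by more than the spread between replicates, 8 of them of Adrb3 and the others the interactions of Prkar2a and Prkaca without KO sedentary replicate 1 (0.74 and 0.55). Leaving out a library put the Prkar2b difference between 2.84 and 3.88 in KO over Flox sedentary, where 10 of 12 such fits called it, and between -3.55 and -2.80 in exercise over sedentary in KO, where 4 of 12 did. The 8 that did not were without Flox sedentary replicate 2 or 3, Flox exercise replicate 1 or 3, KO sedentary replicate 3, or any KO exercise replicate. Replicate numbers are not stated to pair the libraries. Deviations from group means correlated at -0.319 to 0.306 between same-numbered libraries of different groups, and at -0.393 to 0.279 between differently numbered ones. Other differences between libraries, such as atrial markers, also enter these deviations, so they cannot decide whether libraries were paired. With the number as a replicate block Prkar2b was at 3.27 in KO over Flox sedentary and at -3.24 in exercise over sedentary in KO, where it was no longer called, as under RLE scaling. The replicate block called 0 pathway genes in each comparison. Calls over all genes in KO over Flox sedentary went from 19 to 37 of 15226 with it.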
